A study of Mus musculus with 8 samples.

Results

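The replication-dependent histone genes of the mouse lie mainly in a large cluster on chromosome 13 and a small one on chromosome 3. The protein-coding histone genes on chromosome 13 from 21.7 to 23.78 Mb and on chromosome 3 from 96.2 to 96.3 Mb (mm10) were taken, which gave 62 of the 21887 protein-coding genes in the gene table, 52 on chromosome 13 and 10 on chromosome 3. They comprise 6 genes for the linker histone H1, 16 for H2A, 16 for H2B, 12 for H3 and 12 for H4. A further 2 histone pseudogenes, H2ac14 and H2ac5-ps, lie in the same intervals and were kept apart. The comparison set was the other 48 protein-coding genes of the intervals, of which 36 encode vomeronasal receptors of the Vmn1r family.

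Open chromatin had been mapped by ATAC-seq, which reads out where a transposase can reach and cut the DNA, in DN3 thymocytes of C57BL/6 mice. DN3 cells are T-cell precursors at the stage of pre-T-cell receptor selection. There were 2 wild-type libraries and 2 mutant ones, the mutant being homozygous for changes at GATA sites 1 and 2 of the Notch-Myc enhancer (N-Me), a distal element of the Myc gene, whose making the labels do not describe. No age is given, the labels do not say whether replicates were separate animals, so p-values refer to the variation among these libraries only, which may be technical, and the 4 leukaemia samples of the series were not analysed here. Values for the libraries are given in the order wild type 1, wild type 2, mutant 1 and mutant 2.

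Replication-dependent histone genes supply the histones that package newly copied DNA and are transcribed in S phase. They are mostly short and without introns, and their mRNAs end in a stem-loop instead of a poly(A) tail. Their loci gather in a nuclear compartment, the histone locus body, where the coactivator NPAT acts on their promoters. Core histones H2A, H2B, H3 and H4 form the nucleosome, and H1 binds the linker DNA between nucleosomes.

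The promoters of the genes with the highest peaks of each family are printed here because the families differ in the elements they carry. The H1f2 promoter stands beside that of H1f6, the testis-specific linker histone gene, because H1f6 was the only histone gene with no peak on it. H2bc22 stands for the H2A and H2B gene pairs, since its window also holds the start of H2ac22 on the other strand. Each window runs from 250 bases before to 50 bases after the annotated start site, 5′ to 3′ on the gene's strand, from RefSeq (GRCm38.p6). Capitals mark matches to any of 5 motifs on either strand, and none of the marked matches overlap one another.
H1f2, chr13:23738557-23738856, plus strand: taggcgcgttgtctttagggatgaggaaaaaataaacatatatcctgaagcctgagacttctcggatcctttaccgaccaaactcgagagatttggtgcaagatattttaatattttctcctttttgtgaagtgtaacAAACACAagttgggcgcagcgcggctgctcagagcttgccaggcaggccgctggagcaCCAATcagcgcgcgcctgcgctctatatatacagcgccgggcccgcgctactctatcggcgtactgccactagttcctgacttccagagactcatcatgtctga
H1f6, chr13:23695561-23695860, plus strand: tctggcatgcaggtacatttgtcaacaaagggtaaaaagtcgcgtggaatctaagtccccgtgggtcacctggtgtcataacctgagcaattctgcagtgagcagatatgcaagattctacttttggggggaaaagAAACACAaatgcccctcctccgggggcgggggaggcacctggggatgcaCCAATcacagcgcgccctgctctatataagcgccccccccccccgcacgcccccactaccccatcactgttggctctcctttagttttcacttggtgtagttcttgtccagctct
H2ac6, chr13:23683910-23684209, minus strand: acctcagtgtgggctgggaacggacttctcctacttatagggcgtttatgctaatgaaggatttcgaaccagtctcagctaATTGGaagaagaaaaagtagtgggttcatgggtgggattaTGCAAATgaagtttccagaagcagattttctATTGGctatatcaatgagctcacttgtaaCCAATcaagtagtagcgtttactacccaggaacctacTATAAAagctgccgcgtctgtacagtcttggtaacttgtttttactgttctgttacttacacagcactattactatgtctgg
H2bc22, chr13:21787238-21787537, plus strand: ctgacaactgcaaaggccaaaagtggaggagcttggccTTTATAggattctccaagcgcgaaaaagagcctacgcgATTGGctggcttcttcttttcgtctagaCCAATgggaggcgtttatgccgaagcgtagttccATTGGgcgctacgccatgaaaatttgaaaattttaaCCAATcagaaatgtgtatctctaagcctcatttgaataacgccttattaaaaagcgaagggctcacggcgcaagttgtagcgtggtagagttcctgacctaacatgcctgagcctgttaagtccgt
H3c6, chr13:23562336-23562635, minus strand: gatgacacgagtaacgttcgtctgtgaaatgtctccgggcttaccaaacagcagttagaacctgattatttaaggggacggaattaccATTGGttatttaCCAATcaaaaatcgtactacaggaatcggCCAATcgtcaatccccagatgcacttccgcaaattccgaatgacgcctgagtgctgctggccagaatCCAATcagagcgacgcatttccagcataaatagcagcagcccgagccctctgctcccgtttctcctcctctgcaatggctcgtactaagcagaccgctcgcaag
H4c3, chr13:23698409-23698708, minus strand: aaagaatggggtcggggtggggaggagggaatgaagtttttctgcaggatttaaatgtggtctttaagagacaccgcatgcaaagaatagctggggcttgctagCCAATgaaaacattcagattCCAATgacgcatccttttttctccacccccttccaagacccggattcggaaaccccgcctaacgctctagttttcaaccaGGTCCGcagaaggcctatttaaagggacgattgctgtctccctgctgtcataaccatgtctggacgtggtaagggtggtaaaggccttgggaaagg

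The motifs searched were the TATA box (TATAAA), the CCAAT box (CCAAT), the core of the octamer bound by Oct-1 (ATTTGCA), the core of the H4 site II element (GGTCCG) and the H1 box (AAACACA). A promoter sequence was matched for 57 of the 62 genes; H2bc21, H4c14, H3c7, H2bc4 and H3c1 had none. A match describes letters in the window and is not a measured binding site. CCAAT occurred in 49 of 57 histone promoters against 39.2% of all 17492 promoters, and TATAAA in 32 of 57 against 13.3%. CCAAT was present in all 6 H1, 16 H2A, 14 H2B and 10 H3 promoters but in 3 of 11 H4 promoters, those of H4c1, H4c3 and H4c4. Of these 46 promoters outside the H4 family, 39 held CCAAT at 2 or more places, compared with 13.5% of all promoters.

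Among histone promoters, the H4 site II core and the H1 box occurred mostly in single families, and the octamer core only in the H2A and H2B families. The H4 site II core was found in 10 of 11 H4 promoters, all but that of H4c1, and in 10.6% of all promoters. Outside the H4 family it occurred in H2bc9 and H3c11. In 6 of those 10 it began 46 or 47 bases before the annotated start, as in H4c3. The H1 box was found in 5 of 6 H1 promoters, all but that of H1f1, and began 112 to 122 bases upstream. It also occurred in H2ac4 and H2bc14, and the share over all promoters was 6.16%. The octamer core was found in 5 of 16 H2A and 5 of 14 H2B promoters, H2ac6 among them, and in 3.79% of all promoters. The motif counts of histone promoters are not independent. Windows of paired H2A and H2B genes overlap, so a single match can count for both genes, as the octamer of H2ac8 and H2bc8 does. Some promoters are also identical copies, as those of H2bc23 and H4bc24.

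Every histone gene had a peak within 2 kb in every library. The count was 62 of 62 genes in each of the 4 lists, where 76.9% of all protein-coding genes had a peak within 2 kb in all 4. On the gene itself, 61 of 62 had a peak in all 4 libraries (74.6% of all protein-coding genes), and so did both histone pseudogenes. At the promoter window, 56 of 57 had one in all 4 (60.8% of all promoters). Genes that lie close together share peaks, so these counts are not independent. The 2 kb reaches of the 62 genes merged into 23 blocks, and the strongest peaks of the genes came down to 36, 37, 36 and 35 different peaks.

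The exception on the gene body was H1f6, which encodes the linker histone of testis germ cells (H1t). Its body and its promoter were covered by no peak in any library. The nearest peak began 959, 960, 928 and 936 bp past its 3′ end and covered H4c3. H1f6 carries an H1 box 114 bases upstream of its start and CCAAT 65 bases upstream, and H1f2 carries the same motifs at 112 and 54 bases upstream. The H1f2 promoter had a peak of fold 6.36, 6.20, 5.45 and 5.35, and its whole body was covered in each list. So of these H1 genes of one stretch with the same pair of motifs, one promoter was under a peak in 4 of 4 libraries and the other in 0 of 4. The testis-specific genes H2ac1 and H2bc1 lie outside the intervals, and their promoters also had no peak in any library, which makes 0 of 3 testis histone promoters. Of all promoters, 61.7 to 64.2% had a peak in a given library, so many others had none. H2ac1 and H2bc1 lie side by side and are not independent cases, and in so short a list this count says little. All 3 testis genes had a peak within 2 kb in all 4 libraries, and H2bc1 had one on its body in all 4. The highest fold within 2 kb was 6.53, 5.44, 4.85 and 5.63 for both H2ac1 and H2bc1.

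The 48 other protein-coding genes of the intervals were divided. None of the 36 Vmn1r genes, which encode pheromone receptors of the vomeronasal organ, had a peak within 2 kb in any library. The Vmn1r array spans 1162 kb of chromosome 13 (chr13:22087878-23250323), and it held 0, 1, 0 and 0 peaks. That single peak was 86 bp long with fold 2.63 and lay 6491 bp from Vmn1r220. Of the other 12 genes, 10 had a peak within 2 kb in all 4 libraries, namely Fcgr1, Zfp184, Pom121l2, Prss16, Zfp322a, Abt1, Btn1a1, Btn2a2, Hfe and Trim38. The olfactory receptor gene Olfr1359 had one in wild type 1 alone, with fold 2.47.

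**Figure D1:**
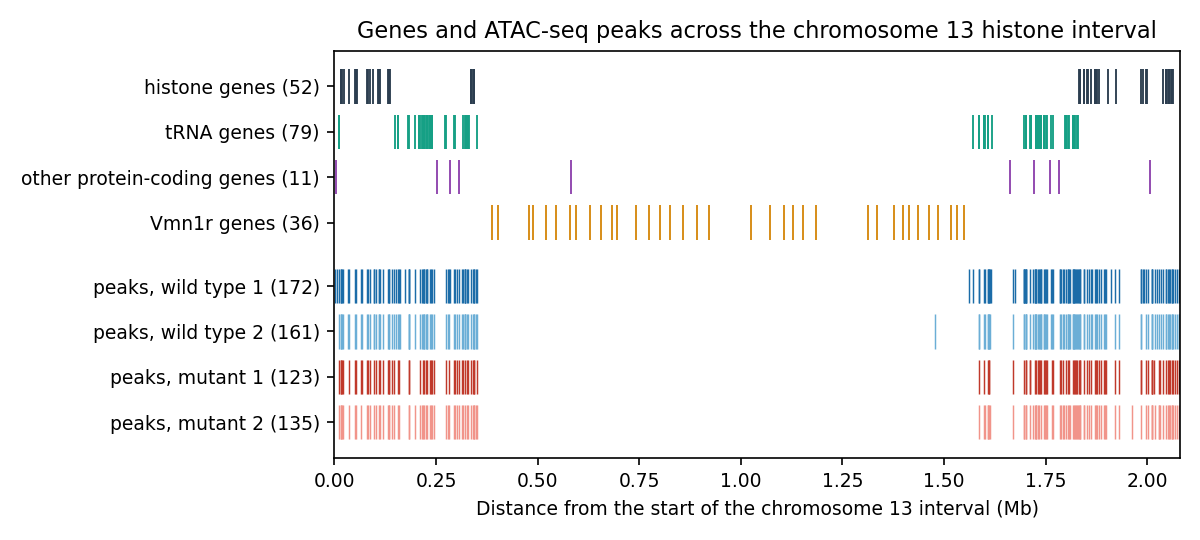
Midpoints of genes (upper rows) and of ATAC-seq peaks (lower rows, one per library) along the chromosome 13 interval, as distance from its start in Mb. Peaks lie over the histone and tRNA genes at both ends, and the Vmn1r array between them holds 0, 1, 0 and 0 peaks.

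The share of genes with a peak was higher for histone genes than for the other protein-coding genes of the intervals by 77.1, 79.2, 79.2 and 79.2 percentage points. The mean difference was 78.6 points, in the same direction in 4 of 4 libraries (exact two-sided sign-flip permutation test over libraries, p = 0.125, the smallest this test can give with 4 libraries). The Vmn1r genes make up 36 of the 48 genes in the comparison set. Without them, 11, 10, 10 and 10 of 12 genes had a peak, against 62 of 62 histone genes. With peaks of fold 4 or more only, the differences were 59.8, 61.4, 40.9 and 28.0 points, a mean of 47.5.

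**Figure D2:**
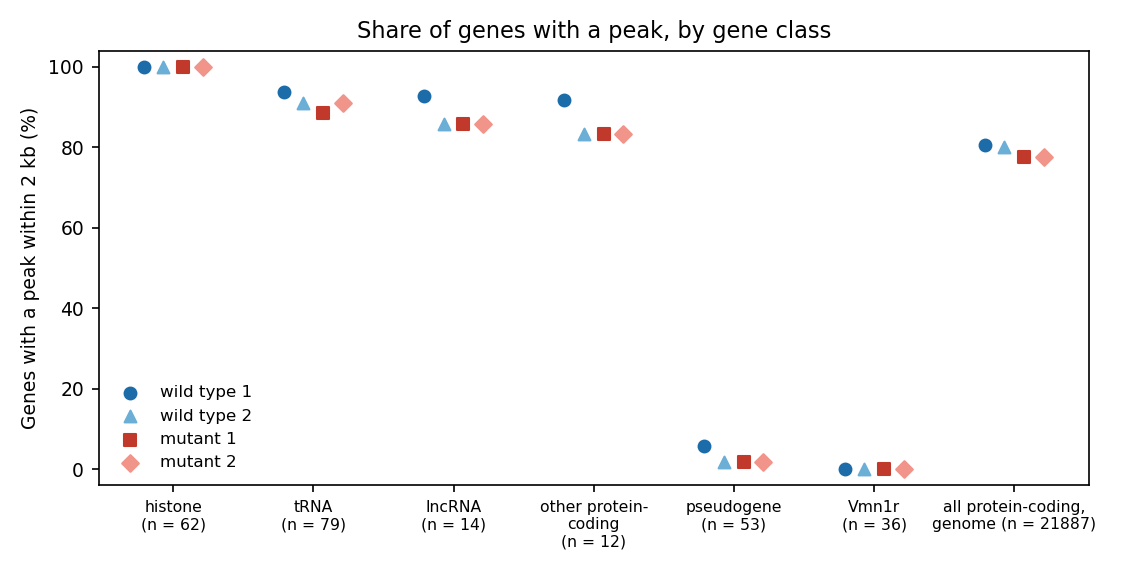
Percentage of genes with a peak within 2 kb in each library (points), for each class of gene in the intervals and, at the right, for all 21887 protein-coding genes of the genome. Histone genes stand at 100% and Vmn1r genes at 0% in all 4 libraries.

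The height of the peaks gave another order than their presence. The fold enrichment of a peak is the ratio of signal to local background given by the authors' peak caller, and it is compared here only between genes of one list. For each gene the highest fold of a peak within 2 kb was used. The median over histone genes was 4.81, 4.75, 4.19 and 3.93. The median over the other genes of the intervals that had a peak was 6.45, 6.38, 5.55 and 5.89, and over all protein-coding genes with a peak 7.29, 6.85, 5.97 and 6.18. Histone genes minus neighbours came to -1.64, -1.63, -1.36 and -1.96, a mean of -1.65, with the histone genes lower in 4 of 4 libraries (exact two-sided sign-flip permutation test, p = 0.125, the smallest possible).

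With peaks on the gene body alone the differences were -1.05, -1.22, -0.52 and -1.37, a mean of -1.04, and with promoter windows in place of genes the mean was -2.24. The gene sets also differ in length, and the part of length in the fold difference was not tested. The histone genes had a median length of 494.5 bp and 56 of 62 were under 1 kb, while the 10 neighbours with a peak in all 4 libraries had a median length of 9996 bp, so that more sequence was searched around them. At promoter windows of equal length, the histone median was 4.63, 4.53, 4.09 and 3.88, and that of all promoters with a peak 6.36, 6.17, 5.47 and 5.67. The median length of the peak at a histone promoter was 1204.5, 1208, 1383 and 1408 bp, and 1108, 1123, 1288 and 1247 bp over all promoters with a peak. Among all 17492 promoters, those without a peak counted as lowest, the median histone promoter stood between percentile 49.5 and 53.0 in the 4 lists.

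Linker histone genes showed a wide spread around these medians. H1f2 was the highest H1 gene with a peak of its own, and the lowest was H1f1, with 3.28, 3.23, 2.97 and 2.93. The highest fold near H1f1 came in 3 of the lists from the peak over H4c1 and H3c1, and its own promoter peak had fold 3.22, 3.23, 2.89 and 2.73. H1f4 gave 4.63, 4.43, 4.75 and 4.84. Folds of different lists are shown side by side and are not a measure of change.

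Among the H2A genes, H2ac6 was highest, with fold 6.28, 6.33, 5.92 and 5.87. By mean percentile over the lists H2ac7 was lowest, with 3.66, 3.74, 3.33 and 3.34, although H2ac10 was lower in the mutant lists at 2.96 and 3.03. H2ac6 and H2ac7 lie in the third stretch of chromosome 13, and each had its peak over the promoter. The 16 H2A genes ran between these values in wild type 1 with a median of 4.77.

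The H2B genes had the highest single value of all. H2bc22 reached 11.83, 10.69, 10.81 and 10.50, but this peak lies 1448, 1437, 1437 and 1417 bp past the end of its 14079 bp gene model. At its promoter the fold was 6.07, 5.83, 5.76 and 5.58. H2bc22 is one of 6 histone gene models longer than 2 kb, all of them H2B genes, and such models can reach peaks far from the coding part. The lowest H2B genes were H2bc7 and H2bc8, which were tied at 3.83, 3.90, 3.43 and 3.40 because the same peak lies within reach of both.

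H3c6 was highest among the H3 genes, with fold 9.70, 9.24, 6.17 and 6.11 at a peak over its promoter. In the wild-type lists this peak was 984 and 995 bp long, and a separate peak of 267 and 224 bp with fold 1.52 and 1.74 lay 699 and 742 bp upstream of the gene. In the mutant lists one peak of 1722 and 1670 bp covered the same stretch. Since fold is averaged over a peak, a joined peak with a weak flank has a lower fold, and how much of the difference at H3c6 goes with the joining was not tested. By mean percentile the lowest H3 gene was H3c1, which shared its values of 3.28, 3.23, 2.97 and 2.93 with H1f1. In mutant 1 H3c8 was marginally lower, at 2.96.

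The H4 genes were led by H4c3, with 6.55, 6.38, 5.48 and 5.44, and H4c11 stood next at 6.29, 6.31, 5.42 and 5.35. H4c1 was lowest, with 3.28, 3.22, 2.97 and 2.93. By the peak at its own promoter H4c17 was lowest, with 2.59, 2.91, 2.57 and 2.37. Gene bodies of the H4 family were the most fully covered, with 11 of 12 wholly under peaks in each list, against 4, 4, 6 and 6 of 12 H3 genes. Over all families 35, 34, 41 and 41 of 62 bodies were wholly covered.

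**Figure D3:**
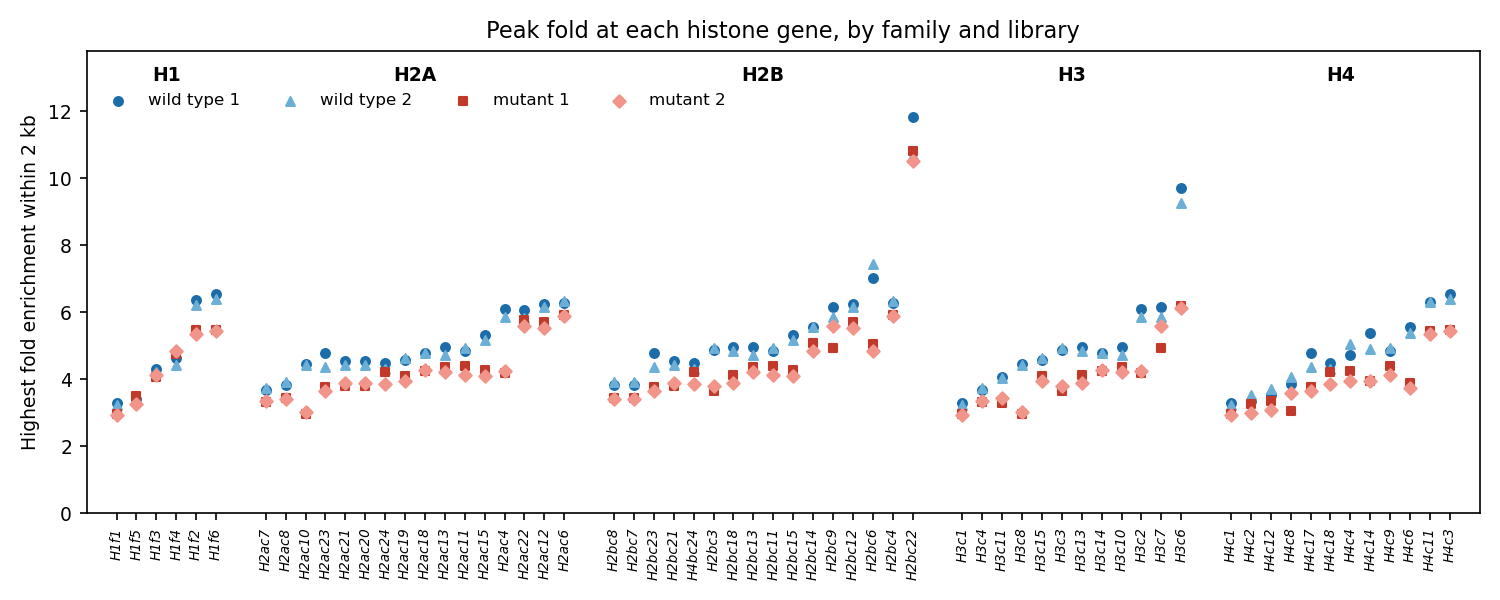
Highest fold enrichment of a peak within 2 kb of each of the 62 histone genes (points, one per library), grouped by family and ordered within it by mean percentile. H3c6 and H2bc22 stand above the rest in the wild-type lists, with 9.70 and 9.24 at H3c6 and 11.83 and 10.69 at H2bc22, whose peak lies beyond the end of its gene model.

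The 4 stretches of histone genes did not keep one order of median fold over the lists. On chromosome 3, 10 genes had medians of 4.67, 4.70, 4.09 and 3.91. The first stretch of chromosome 13 (18 genes) had 4.86, 4.54, 4.23 and 3.97, the second (5 genes) 4.85, 4.93, 4.39 and 4.13, and the third (29 genes) 4.71, 4.94, 3.88 and 3.79.  The promoter peaks of the chromosome 3 genes were the longest, their median being 2390.5, 2298, 2654 and 3091.5 bp. In the first stretch of chromosome 13 it was 1237, 1256, 1318 and 1371 bp.

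The widest histone regions, taken as the union of overlapping peaks of the 4 lists, were all on chromosome 3. The widest was chr3:96243773-96247321, 3549 bp over H2ac18 and H3c14. It was followed by chr3:96238206-96241707, 3502 bp over H3c15 and H2ac19, and by chr3:96219207-96222426, 3220 bp over H2ac21, H2ac20 and H2bc21. The H2ac18 and H2ac19 promoters share an identical run of 219 bases and those of H3c14 and H3c15 one of 231 bases. Reads from such copies may not be assigned to one of them, so the values of these genes are uncertain. The same holds for H2bc23 and H4bc24 (300 bases), H4c17 and H4c18 (285 bases), and H2ac23 and H2ac24 (200 bases). H4bc24 is counted with the H2B genes by its older symbol, Hist1h2br.

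Divergent H2A and H2B pairs shared single peaks. Among the 57 histone genes with a promoter sequence there were 9 divergent pairs of start sites within 1 kb. All 9 were of an H2A with an H2B gene, with starts 164 to 268 bp apart. Genes without such a sequence, such as H2bc4, could not be paired. H2ac6 and H2bc4 lay under a shared region with fold 6.28, 6.33, 5.92 and 5.87, above all 9 pairs in each list. In each of the 4 libraries, 1 peak covered both start sites in 9 of 9 pairs. Of these 9 pairs, H2ac12 and H2bc12, 178 bp apart, were highest in the wild-type lists. Their peak had fold 6.25, 6.14, 5.70 and 5.53 over 1352, 1350, 1446 and 1441 bp. Highest of the 9 in the mutant lists was H2ac22 and H2bc22, with 6.07, 5.83, 5.76 and 5.58. The lowest was H2bc7 and H2ac7, 174 bp apart, with 3.66, 3.74, 3.33 and 3.34. The printed H2bc22 window, which also holds the start of H2ac22, holds CCAAT at 4 places between the paired starts, in either orientation.

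Around the start sites, coverage of histone genes was broad and then ended sharply. From the start site to 350 bp into the gene, 56 of 57 promoters (98.2%) were under a peak in each list. Of all protein-coding start sites, 60.1 to 62.2% were under a peak at the start and 53.6 to 54.9% at 350 bp. By 750 bp downstream, histone coverage was 21.1 to 28.1%, and that of all genes 26.9 to 31.1%. Upstream the histone genes had more coverage, with 50.9 to 59.6% at 500 bp and 31.6 to 40.4% at 1500 bp, against 26.0 to 31.0% and 4.63 to 5.01%. Neighbouring histone genes fall inside these distances, and their share in the upstream coverage was not tested.

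**Figure D4:**
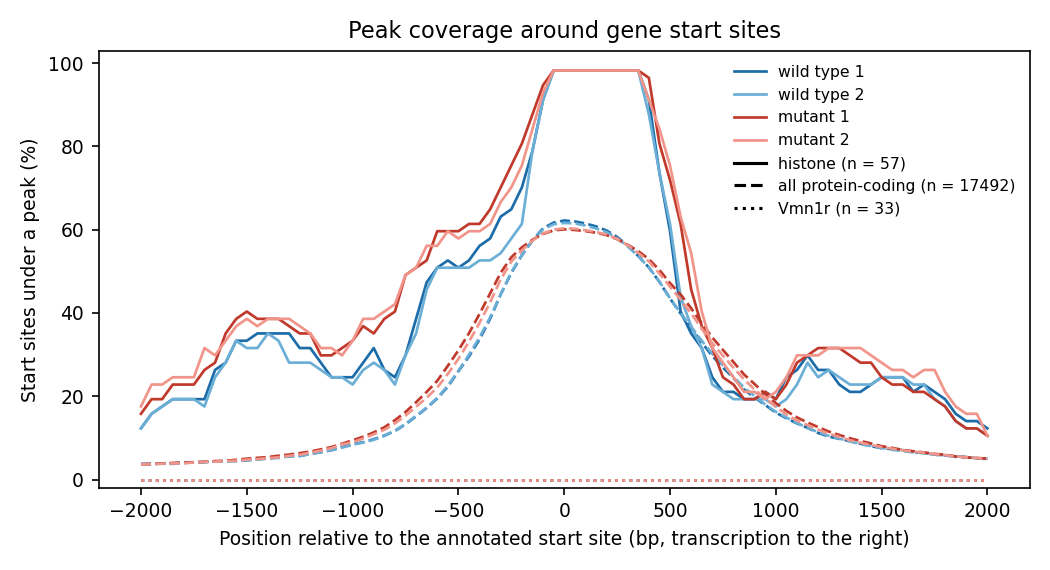
Percentage of annotated start sites under a peak at each position from 2000 bp before to 2000 bp after the start, in steps of 50 bp, for 57 histone promoters (solid), 17492 protein-coding promoters (dashed) and 33 Vmn1r promoters (dotted), coloured by library. The histone lines stay at 98.2% from the start to 350 bp, while the Vmn1r lines stay at 0.

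Fewer peaks but more covered sequence were found at histone genes in the mutant lists. The number of peaks within 2 kb of a histone gene was 64, 61, 53 and 55, a mean of 62.5 ± 2.12 in wild type and 54.0 ± 1.41 in mutant (SD, n = 2 libraries each), and the groups did not overlap. The covered length was 57429, 56191, 63963 and 65531 bp, a mean of 56810 ± 875 against 64747 ± 1109 bp, out of 240191 bp searched. For each of these measures the exact two-sided permutation test gave p = 0.333, the smallest possible with 2 libraries against 2. The mutant to wild-type ratio was 0.864 for histone peaks and 0.737 for all peaks of the genome, and 1.14 for histone covered length and 0.991 for all covered length.

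The lists also differed genome-wide in how peaks were built. Whole lists held 169255, 156372, 121022 and 119023 peaks with a median width of 284, 302, 444 and 421 bp. No 2 neighbouring peaks lay closer than 257, 261, 293 and 349 bp, so mutant lists joined peaks over longer gaps. With one minimum length and one joining gap applied to all lists, the histone covered length was 57564, 56506, 63963 and 65531 bp. With peaks of fold 4 or more only, the order turned, to 41728, 41896, 35208 and 28825 bp.

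Few histone regions were called in 1 genotype alone. Merging the 4 lists gave 59 histone regions, 52 of them called in all 4 libraries, and the other 7 were 77 to 210 bp wide. Both wild-type lists held 56 of them, and 2 of these (3.57%) were in neither mutant list, where the share over the whole genome was 15%. These were chr13:21733570-21733663, 94 bp near H4c11 with fold 1.48 and 1.65, and chr13:21796656-21796808, 153 bp inside the H2bc22 gene model with fold 2.86 and 2.88. Both mutant lists held 52, and 0 of these lacked a wild-type counterpart, where the share over the genome was 1.75%.

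Most histone regions extended further in the mutant lists. Of 52 histone regions called in all 4 libraries, 38 (73.1%) had more bp covered in both mutant than in both wild-type libraries, and 0 had fewer. Over all such regions of the genome the shares were 38.8% and 19.8%. Among regions covered over 500 bp or more, the counts were 35 of 46 (76.1%) and 0 of 46, against 48% and 13.4%. The ratio of mutant to wild-type covered length had a median of 1.12 over the histone regions and 1.06 over all regions called in all 4 libraries. These are shares of regions that neighbour each other and were built by the same lists, and no test was made of the difference between them.

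Individual regions show how large this was. The region over the promoters of H2bc23 and H2ac23 was covered over 1523, 1485, 2279 and 2224 bp. That over H3c6 was covered over 1251, 1219, 1722 and 1670 bp, and that over H3c3 and H2bc3 over 1755, 1728, 2317 and 2304 bp. The promoter region of H2ac12 and H2bc12 differed less, with 1352, 1350, 1446 and 1441 bp. The lowest ratio of mutant to wild-type length was in a region with no gene body, chr3:96270841-96272480 beyond H2bc18, which was covered over 890, 1640, 170 and 1111 bp, where the libraries of the genotypes overlap. These regions were chosen after their values were seen.

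**Figure D5:**
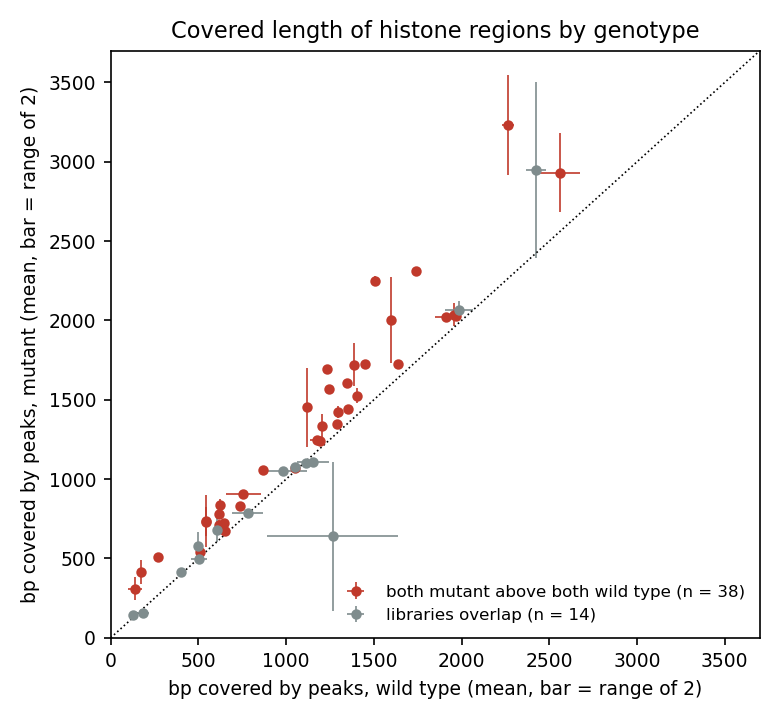
Base pairs covered by peaks in each of the 52 histone regions called in all 4 libraries, mean of the 2 mutant libraries against mean of the 2 wild-type libraries, with bars for the range of 2 and a dotted line of equality. In 38 regions both mutant libraries lie above both wild-type libraries, and in none do both lie under them.

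Genes that serve histone supply elsewhere in the genome were also under peaks. All 16 of 16 genes of the histone locus body and histone mRNA processing had a peak within 2 kb in all 4 libraries. So did 76.9% of all protein-coding genes. Of those with a promoter sequence, 14 of 14 had a peak at the promoter in all 4, against 60.8% of all promoters. In so short a list these counts say little. Npat, the coactivator of histone transcription, had fold 6.10, 6.25, 4.91 and 4.98. Slbp, whose product binds the mRNA stem-loop, had 9.01, 9.30, 6.06 and 6.01, with 6.80, 6.68, 6.06 and 6.01 at its promoter. Lsm11, a subunit of the U7 processing particle, had 15.66, 13.16, 14.49 and 15.83. These came from a peak away from its promoter, where the fold was 8.36, 8.37, 7.38 and 7.90. Hinfp, whose product binds the H4 site II element, had 9.99, 9.84, 8.07 and 8.69. The median of the list was 8.54, 8.51, 6.75 and 7.11, above the histone median in each library. Over all protein-coding genes with a peak it was 7.29, 6.85, 5.97 and 6.18. The genes of the list are mostly much longer than the histone genes, so more sequence was searched around them. For some, as for Lsm11, the highest fold lay away from the promoter. The part of gene length in these medians was not tested, and no promoter median of the list was computed.

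Histone genes outside the clusters were called as well. All 11 replication-independent variant genes, among them H3f3b and H2az1, had a peak in all 4 libraries, with a median fold of 5.48, 5.87, 5.21 and 5.60. The replication-dependent genes H2aw, H2bu2 and H4f16, which lie outside the 2 intervals, had 3 of 3. The 6 histone chaperone genes, such as Chaf1a and Nasp, had 6 of 6. Against the 76.9% of all genes, a count of this size in short lists says little about them.

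Of the neighbouring non-histone genes the strongest was Zfp322a, a zinc-finger gene, with fold 10.69, 10.50, 8.18 and 8.71. Btn2a2, a butyrophilin gene, had 8.30, 8.27, 7.86 and 7.66, and Hfe, the gene for the iron regulator mutated in haemochromatosis, had 7.96, 7.32, 6.32 and 6.79. Trim38 had 7.43, 7.18, 7.87 and 6.68, and Pom121l2 had 6.45, 6.13, 6.54 and 6.16. The Trim38 values came from a peak past the end of its gene model and outside the interval, and its promoter window had no peak in any library. All 5 exceeded the histone median in each library. They were chosen as the neighbours with the highest mean percentile of fold, so this follows from the choice and is not a further result.

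The labelled cell type was checked against marker genes, a marker counting as called when a peak lay within 1 kb of an annotated end of the gene. All 10 DN3 markers, among them Ptcra, Rag1 and Notch1, were called in all 4 libraries, as were 67.1% of all protein-coding genes. Of B-cell markers 3 of 4 were called in all 4 libraries, of myeloid markers 1 of 4 and of erythroid markers 1 of 4, with Hba-a1, Gata1 and Elane called in none. Csf1r, Mpo and Slc4a1 were called in both wild-type and in neither mutant library. Of all regions of both wild-type libraries, 15% were in neither mutant list, and the share over all gene ends was not computed. The calls at these markers therefore give no measure of cell composition. The part of other cells in the histone values was not tested. Peak lists carry no read depth, so a missing peak means only that none was called at an unknown depth.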

How the data were processed

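ATAC-seq peak lists of 4 DN3 libraries were used, 1 made for each library. The submitters' processing notes name MACS2 2.1.1, SAMtools 1.7, Bowtie2 2.3.3.1 and cutadapt 1.16, and the build mm10 (GRCm38). Settings, order and any read shift were not given in the sources used here. The deposited score is −log10 q times 10. The deposited fold enrichment is the authors' ratio to local background. The −log10 p and −log10 q deposited with a peak hold within its list. The lists hold no counts, so depth is unknown and no count model was fitted.

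Peaks off chromosomes 1 to 19, X and Y were dropped, leaving out 0.112 to 0.131% of each list. Gene positions and promoters came from RefSeq tables (GRCm38.p6), which do not give exons or UTRs. A gene had a peak when one overlapped it or the 2 kb on either side. Percentiles were taken among all protein-coding genes, or all promoters, with those without a peak lowest. Overlapping peaks of the 4 lists were merged into regions. Libraries were compared by exact permutation tests. Named histone genes were those with the highest and lowest mean percentile of each family, those without a peak, those touched by a region of 1 genotype, the testis genes and those under the 3 widest regions. Named neighbours were the 5 with the highest mean percentile and those with a peak in all 4 libraries. Genes named beyond this rule were chosen after their values were seen. Members, lists, motifs and tests were chosen with earlier results of these data known. Code was tested on simulated data. Python 3.11.15, numpy 2.4.6, pandas 2.3.3, scipy 1.17.1 and matplotlib 3.10.9 were used. Alternatives were narrower reaches, filters on fold and −log10 q, equal peak numbers, a common length and gap, 50% cover, promoter windows, and leaving out each library.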

Additional observations from a re-analysis of the deposited data

How the results depend on the processing

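Of 80 alternative values, 69 were classed as the same as the reported one. For counts of genes and regions this meant an equal or similar count. For peak number, covered length, gene share and median fold it meant the same direction only. The tests could not reach small p-values with so few libraries, so the size of these differences was not compared in this class. With peaks of fold 4 or more, 29 histone genes in place of 62 had a peak in all 4 libraries, 9 histone regions in place of 2 were called only in wild type, the gene-share difference was 47.5 in place of 78.6 points, and covered length in wild type minus mutant was 9796 bp in place of -7937 bp, a reversed direction. The number of histone regions called only in wild type was 1 with gene bodies only, with bodies plus 500 bp, with −log10 q of 5 or more and with equal numbers of peaks, and 0 after 1 minimum length and joining gap for all lists or with promoter windows, which were added after seeing the data. With 50% cover of a region, 2 histone regions were called only in mutant. Leaving out 1 library gave 2 to 5 regions called only in wild type (5 without wild type 2), 62 genes with a peak in each remaining library, 0 regions called only in mutant, a difference of 7 to 10 histone peaks, of -8721 to -7153 bp covered, of 78.5 to 79.2 points in gene share and of -1.74 to -1.54 in median fold. The difference in median fold was -1.04 with gene bodies only and -2.24 with promoter windows, in place of -1.65. The causes were not tested. With the replicate number as a block the differences were 8.5 peaks and -7937 bp (exact sign-flip permutation p = 0.5, the smallest possible). The labels do not say that a number pairs libraries, and same-numbered libraries did not deviate together (r = -0.0675 over 102231 regions). Unknown depth limits every statement of absence.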

Other observations

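The histone intervals also hold 79 tRNA genes, which are transcribed by RNA polymerase III. Of these, 64, 62, 55 and 60 had a peak on the gene in wild type 1, wild type 2, mutant 1 and mutant 2, and 52 had one in all 4. Within 2 kb the counts were 74, 72, 70 and 72. The median fold of the highest peak within 2 kb of a tRNA gene was 4.22, 4.24, 3.85 and 3.93, beside 4.81, 4.75, 4.19 and 3.93 for the histone genes.

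Of 14 long noncoding RNA genes in the intervals, 10 had a peak on the gene in all 4 libraries. Of 53 pseudogenes other than those of histones, 1 had a peak on the gene in all 4 libraries, while both histone pseudogenes, H2ac14 and H2ac5-ps, had one. The folds at the histone pseudogenes, 5.54 and 4.86 in wild type 1, were those of the regions over H2bc14 and over H3c3 and H2bc3. These pseudogenes thus shared the peaks of neighbouring histone genes, and the counts do not show a trait of their own.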
